A study of Mus musculus with 4 samples.

Results

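The mitochondrial ribosomal RNAs, 12S (mt-Rnr1) and 16S (mt-Rnr2), were examined in an iCLIP map. The map was made for the splicing factor SRSF4, a member of the SR protein family, in cultured neonatal mouse cardiomyocytes. The rRNAs were taken as all plus-strand crosslink sites within their annotated genes on the mitochondrial chromosome, chrM:70-1024 for mt-Rnr1 (ENSMUSG00000064337.1) and chrM:1094-2675 for mt-Rnr2 (ENSMUSG00000064339.1). This gave 552 sites of 33749 in the list, with 4294 of 93371 cDNAs. Cells of C57BL/6 pups at P0-1 were given 15 μg of modified RNA for an SRSF4-GFP fusion, exposed to 100 mJ of 254 nm light after 48 h, and used for iCLIP with an antibody to GFP. iCLIP (individual-nucleotide resolution crosslinking and immunoprecipitation) reads the place where reverse transcription ends beside a crosslinked nucleotide. Each cDNA is taken here as 1 crosslink, although the treatment of duplicate reads is not stated. All 4 libraries in the labels carry the fusion and form 1 group. The deposited list is 1 pool of 5 data sets, whose relation to the 4 libraries is not stated, so no control sets the background of the pull-down and no spread between replicates exists. The extraction text of the labels also describes RNA from frozen hearts, which is not the cultured material named elsewhere. The fusion came from transfected RNA rather than from the endogenous gene, and the cell type was not checked against marker genes here.

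Mitochondrial ribosomes make the membrane proteins of oxidative phosphorylation, which heart muscle uses heavily. The 12S rRNA is the core of their small subunit, where codons are read, and the 16S rRNA is the core of the large subunit, where peptide bonds form. Both are transcribed with neighbouring transfer RNAs as 1 precursor and cut free within mitochondria, whereas SRSF4 is known as a nuclear protein. Its family is known for binding purine-rich RNA in exons. Whether the sites below are contacts of the fusion or RNA carried along in the pull-down was not tested.

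Listed sites fell in short clusters, and the clusters with the most cDNAs are shown because most of the listed depth lies in them. Here a cluster is a series of sites with steps of at most 15 nt, the neighbourhood used to make the list. Selection of sites over that neighbourhood favours grouped sites, so clusters and the gaps between them are partly built into the list. Each sequence is the plus strand of mm9, 5′ to 3′, with T for U, from the GENCODE M21 transcript. Capitals mark nucleotides with 10 or more cDNAs. The 5 clusters of mt-Rnr1 with the most cDNAs, in order along the RNA, were:
mt-Rnr1 chrM:323-382: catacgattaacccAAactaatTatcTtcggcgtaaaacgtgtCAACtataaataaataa
mt-Rnr1 chrM:447-551: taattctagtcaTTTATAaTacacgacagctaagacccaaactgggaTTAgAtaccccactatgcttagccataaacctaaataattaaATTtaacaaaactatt
mt-Rnr1 chrM:594-620: ggcggtactttaTATccatctagagga
mt-Rnr1 chrM:673-697: cagcctaTaTaccgcCAtcttcagc
mt-Rnr1 chrM:936-968: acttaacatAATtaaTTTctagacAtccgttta

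The 5 clusters of mt-Rnr2 with the most cDNAs, marked in the same way, were:
mt-Rnr2 chrM:1114-1155: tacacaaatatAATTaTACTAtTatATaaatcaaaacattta
mt-Rnr2 chrM:1552-1604: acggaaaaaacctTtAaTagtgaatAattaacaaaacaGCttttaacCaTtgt
mt-Rnr2 chrM:1648-1672: cataaaattTcAaTtAAtTcCATAA
mt-Rnr2 chrM:1776-1868: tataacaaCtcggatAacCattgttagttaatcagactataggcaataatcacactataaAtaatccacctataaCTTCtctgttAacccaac
mt-Rnr2 chrM:2630-2661: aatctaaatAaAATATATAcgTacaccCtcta

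The 12S RNA held more cDNAs per length than the 16S RNA. mt-Rnr1 held 217 sites with 1788 cDNAs, and mt-Rnr2 held 335 sites with 2506 cDNAs. Per length, this was 187 cDNAs per 100 nt in mt-Rnr1 (95% exact Poisson interval 179 to 196) and 158 in mt-Rnr2 (152 to 165). These and all other intervals are 95% exact intervals. They count every cDNA or site as independent and hold no error other than counting error. The 12S RNA made up 37.6% of the combined length and 41.6% of the combined cDNAs (95% exact binomial interval 40.2% to 43.1%). The density ratio of 12S to 16S was 1.18. It rested on few nucleotides, since it was 0.93 without the 5 highest sites of each RNA and 0.90 without the cluster with most cDNAs in each. Only the cDNAs were left out in these settings, and the full length of each RNA was kept. The share of nucleotides with a listed site was nearly the same in both, 22.7% in mt-Rnr1 (20.1% to 25.5%) and 21.2% in mt-Rnr2 (19.2% to 23.3%), with overlapping intervals.

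Sites of both rRNAs had the same typical height. The median was 3 cDNAs per site in each, and the mean was 8.24 in mt-Rnr1 and 7.48 in mt-Rnr2. A single cDNA marked 27.2% of mt-Rnr1 sites (21.4% to 33.6%) and 23.6% of mt-Rnr2 sites (19.1% to 28.5%). Sites of 10 or more cDNAs numbered 39 in mt-Rnr1 and 71 in mt-Rnr2, or 18.0% (13.1% to 23.7%) and 21.2% (16.9% to 26.0%). By comparison, mitochondrial tRNAs had 42.96% of 135 sites at 1 cDNA and 5.19% at 10 or more, and mitochondrial mRNAs had 71.3% of 167 sites at 1 cDNA and 0 at 10 or more (upper limit of the exact interval 2.18%; 3 counts of the total would be 1.80%). The intervals of both rRNAs for sites of 10 or more cDNAs lay above those of the tRNAs (2.11% to 10.4%) and mRNAs. Nuclear sites, 97.5% of the list, had a median of 1 cDNA. Of these 32891 sites, 65.6% had 1 cDNA and 4.77% had 10 or more (4.55% to 5.01%), also below both rRNAs. The deepest nuclear run (chromosome 17, plus strand, mm9 positions 39983381 to 39985047) was instead deeper than both rRNAs. It was picked as the nuclear run with the most cDNAs, so its greater depth partly follows from that choice. It had a median of 7 cDNAs per site and 40.2% of its 1065 sites at 10 or more. RNA abundance was not measured here, so fewer contacts per molecule and fewer molecules cannot be told apart in any of these comparisons.

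About 1 nucleotide in 5 was listed, and the clusters of listed sites spanned a small part of each rRNA. mt-Rnr1 held 6 clusters that spanned 270 nt, or 28.3% of the RNA. mt-Rnr2 held 10 clusters that spanned 390 nt, or 24.7%. Cluster width had a median of 30 nt in mt-Rnr1 (range 20 to 105) and 32 nt in mt-Rnr2 (range 7 to 93). Within clusters the depth was 6.62 cDNAs per nt in mt-Rnr1 and 6.43 in mt-Rnr2. No minus-strand site lay within either gene.

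**Figure D1:**
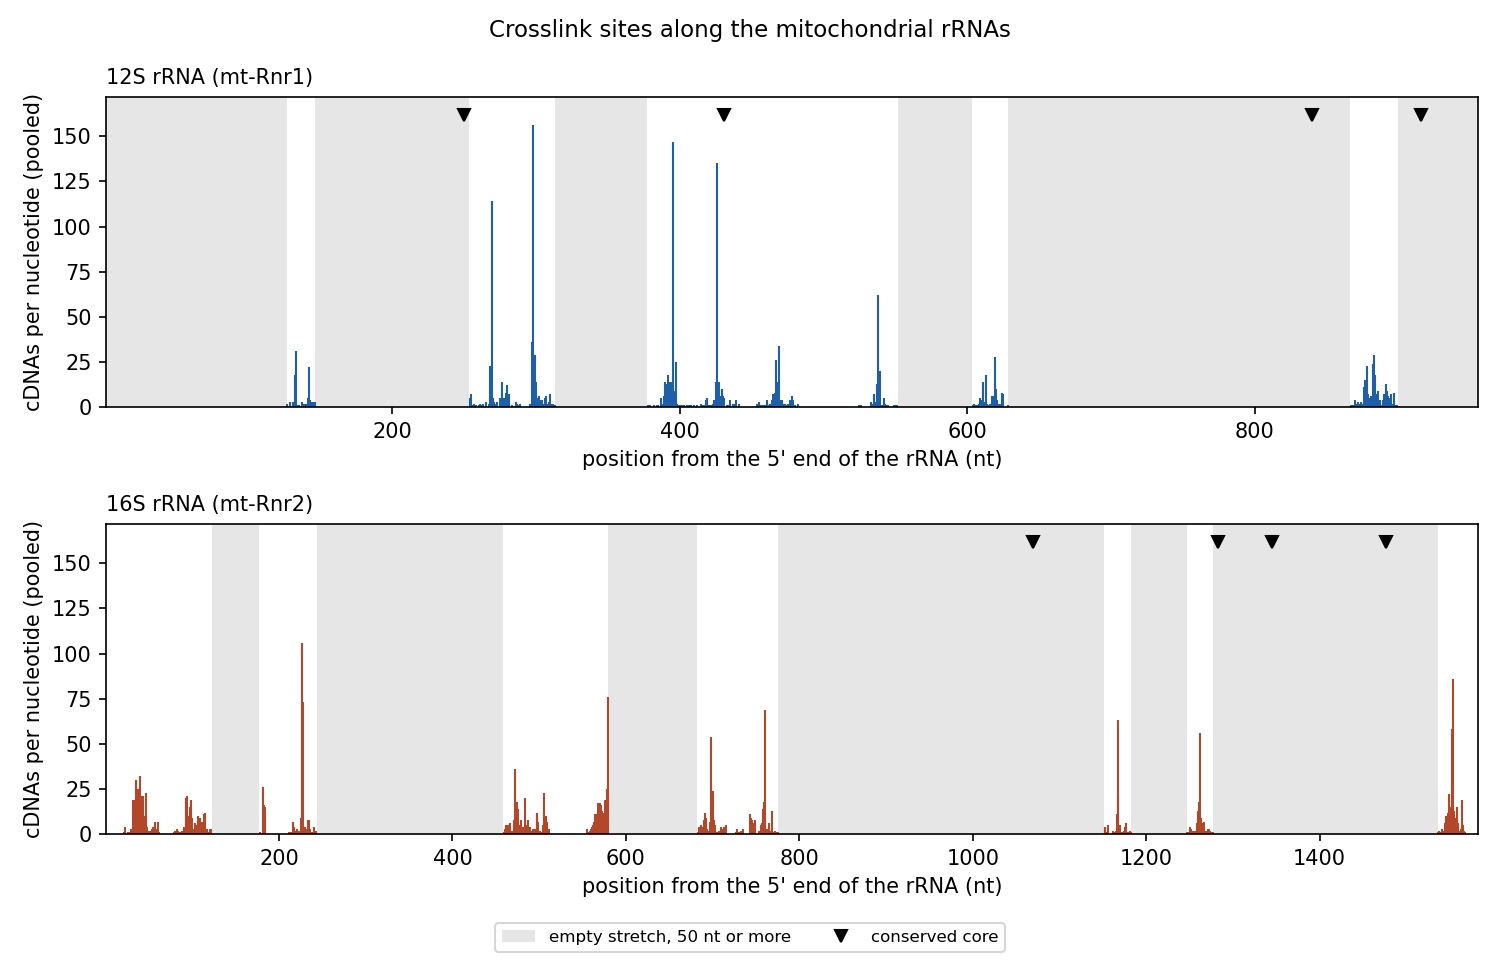
Pooled cDNAs at each listed nucleotide (vertical axis, linear) along the 12S and 16S rRNAs (horizontal axis, nt from the 5′ end of each RNA). Grey bands are stretches of 50 nt or more with no listed site, and triangles mark 8 short cores from conserved places. The 4 tallest lines of 12S, from 114 to 156 cDNAs, stand in its 5′ part, and 7 of the 8 cores lie in grey bands, which cover 67.3% of 12S and 67.8% of 16S.

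Long parts of both rRNAs had no listed site. Stretches of 50 nt or more without a site made up 67.3% of mt-Rnr1 and 67.8% of mt-Rnr2. In mt-Rnr1 the 3 longest ran over 238 nt (chrM:698-935), 126 nt (chrM:70-195, from the 5′ end of the RNA) and 107 nt (chrM:216-322). In mt-Rnr2 they ran over 376 nt (chrM:1869-2244), 259 nt (chrM:2371-2629) and 215 nt (chrM:1337-1551). The 16S RNA had listed sites close to both of its ends, the outermost 20 nt after the 5′ end and 14 nt before the 3′ end. The 12S RNA began with 126 empty nucleotides and closed with 56. A site is listed only if significant, so an empty stretch may hold cDNAs under the authors' threshold. The sources used here do not say how reads that match several places in the genome were handled.

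In both RNAs more cDNAs lay 5′ than 3′ of the midpoint. In mt-Rnr1, 71.5% of cDNAs (69.3% to 73.6%) lay 5′ of the midpoint, and in mt-Rnr2 74.6% (72.9% to 76.3%). When each RNA was divided into 10 equal parts, the part with the highest density in mt-Rnr1 was the fifth, with 674 cDNAs per 100 nt and 35.8% of the cDNAs of the gene. The first, eighth and ninth parts of mt-Rnr1 had no site. In mt-Rnr2 the first part was the densest, at 347 cDNAs per 100 nt, and the sixth and seventh had no site. The last part of each RNA, after long empty stretches, again held 13.5% of cDNAs in mt-Rnr1 and 13.4% in mt-Rnr2.

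The highest single nucleotides were in 12S. Position 367 held 156 cDNAs, position 464 held 147, position 495 held 135 and position 338 held 114. The fifth, position 607, held 62. The 4 leading sites form 2 pairs, 29 nt apart (338 and 367) and 31 nt apart (464 and 495), each pair within 1 cluster. They were narrow: position 464 had 14 and 9 cDNAs on its neighbouring nucleotides, and position 495 had 14 on each side. Position 495 held 9.64 times the cDNAs of its higher neighbour, and position 367 held 4.33 times.

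In 16S the highest nucleotides were lower and spread over 4 clusters. Position 1320 held 106 cDNAs, position 2647 held 86, position 1672 held 76, position 1321 held 73 and position 1854 held 69. Positions 1320 and 2647 were blunter than the leading 12S sites. Position 1320 held 1.45 times the cDNAs of 1321, and position 2647 held 1.48 times those of 2646, which had 58. Position 1854 was narrow, at 5.75 times its higher neighbour. Position 1672 was the last site of its cluster. The nucleotide before it held 25 cDNAs, and the 103 nt after it held no site.

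The tallest clusters carried different shares of the RNAs. The cluster at chrM:447-551 held 656 cDNAs, 36.7% of mt-Rnr1, and the cluster at chrM:323-382 held 527, or 29.5%. Next came chrM:936-968 with 241 cDNAs and a site at each of its 33 nucleotides, none above 29. The clusters at chrM:673-697 and chrM:594-620 followed with 130 and 126 cDNAs. The highest nucleotide of the last of these held 49.2% of the cluster, the largest share among the 16 clusters of both RNAs.

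The 16S clusters were closer to one another in depth. The cluster at chrM:1776-1868 led with 427 cDNAs, 17.0% of mt-Rnr2, and was followed by chrM:2630-2661 (337), chrM:1114-1155 (322), chrM:1648-1672 (289) and chrM:1552-1604 (287). The 5 leading clusters together held 66.3% of the cDNAs of mt-Rnr2, against 94.0% for the 5 leading clusters of mt-Rnr1, which has only 6. The clusters differed in shape. The cluster at chrM:1114-1155 was broad, with 12 nucleotides of 10 or more cDNAs and a highest value of 32, or 9.94% of the cluster. The cluster at chrM:2245-2275 was peaked, with 44.4% of its 142 cDNAs at position 2260. The smallest, chrM:1271-1277, consisted of 4 sites, and 3 adjacent nucleotides held 57 of its 58 cDNAs.

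**Figure D2:**
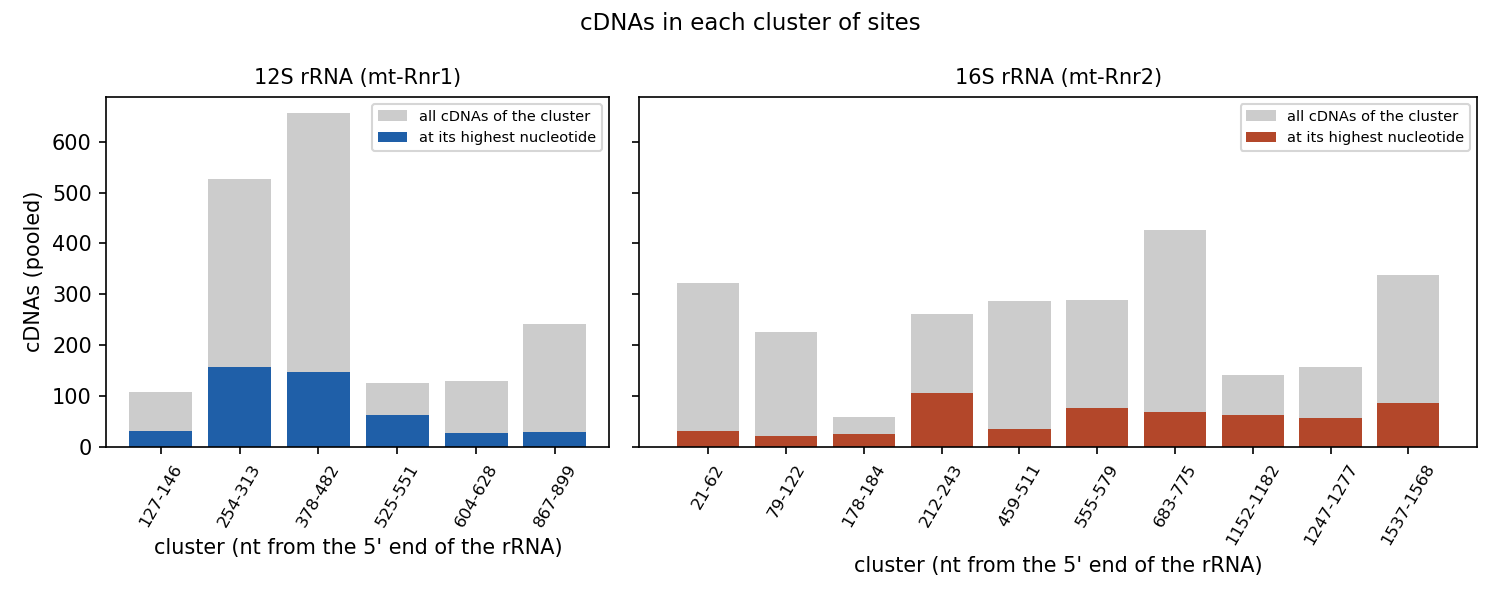
cDNAs of each cluster (grey bars) and of its highest nucleotide (coloured bars), pooled, with clusters named by their first and last nucleotide from the 5′ end of the rRNA. 12S is led by 2 clusters of 527 and 656 cDNAs, whereas 8 of the 10 clusters of 16S lie between 142 and 337 cDNAs.

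Depth was more concentrated in 12S than in 16S. In mt-Rnr1, 15 sites (6.91% of its sites) held 50% of the cDNAs, and in mt-Rnr2 38 sites (11.3%) did. The highest 10% of sites carried 57.9% of cDNAs in mt-Rnr1 (55.6% to 60.2%) and 47.8% in mt-Rnr2 (45.8% to 49.7%). The 5 highest sites alone carried 34.3% (32.1% to 36.6%) and 16.4% (14.9% to 17.9%). None of these intervals overlapped between the RNAs, but they count each cDNA as independent and the sites were picked as the highest. The 5 highest sites are also unequal fractions, of 217 sites in mt-Rnr1 and of 335 in mt-Rnr2. The Gini coefficient over sites, which is 0 where all sites are equally deep, was 0.68 in mt-Rnr1 and 0.61 in mt-Rnr2. It was 0.58 in the chromosome 17 run, 0.59 in the mitochondrial tRNAs, 0.24 in the mitochondrial mRNAs and 0.56 in the whole list. The highest 10% of sites carried 53.3% of cDNAs in the whole list, between the shares of 12S and 16S. Such concentration is therefore not particular to the rRNAs.

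**Figure D3:**
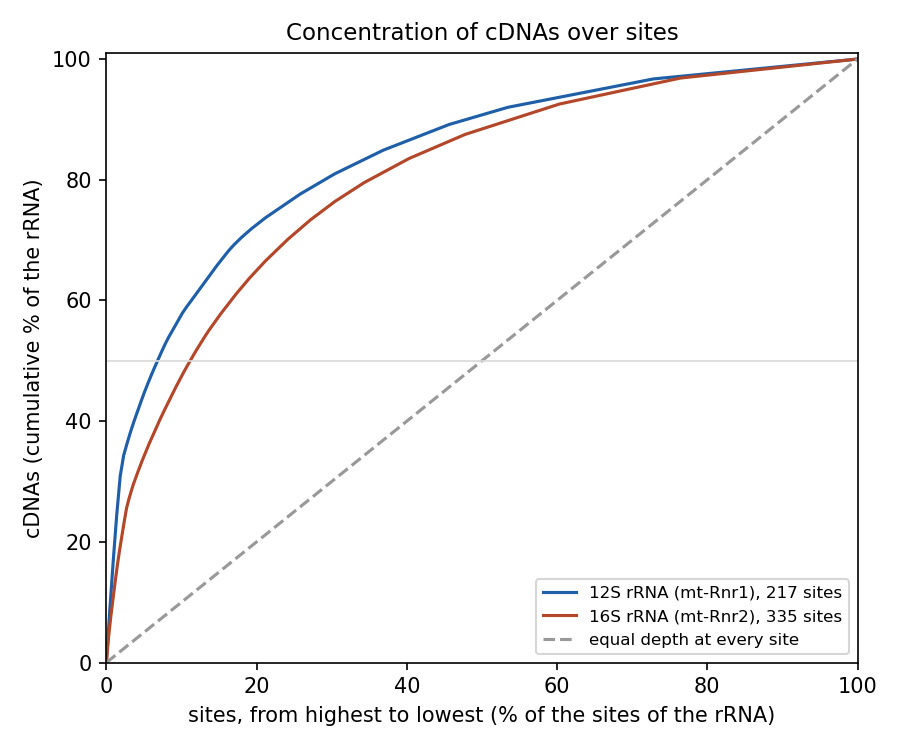
Cumulative percent of cDNAs (vertical axis) held by sites ranked from highest to lowest (horizontal axis, percent of the sites of each rRNA); the dashed line marks equal depth at every site. The 12S curve reaches 50% of cDNAs at 6.91% of sites and the 16S curve at 11.3%.

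Short segments from places that are conserved between bacterial and mitochondrial rRNAs were located, since these places mark where the ribosome works. Whether each mouse word is identical in bacteria was not examined. These 8 cores of 7 letters were chosen after the sites had been seen, and no test was made. In mt-Rnr1 they were CCGCGGT and GATACCC, from loops of the small subunit near the decoding and tRNA sites, and CCGCCCG and GTCGTAA, from the facing strands around the decoding site. In mt-Rnr2 they were AAGACCC and GGGATAA and TTGGATC, in or beside the central ring where peptide bonds form, and ACGAAAG, from the sarcin-ricin loop that binds translation factors. Each occurred once on the plus strand of its RNA. CCGCGGT and AAGACCC also occurred once in the other rRNA and ACGAAAG 2 times. On the minus strand GATACCC and CCGCGGT, whose reverse complement overlaps it, matched mt-Rnr1 once each, and GTCGTAA and TTGGATC matched mt-Rnr2 once each.

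Empty stretches cover 67.3% of mt-Rnr1 and 67.8% of mt-Rnr2, so most cores would lie in them with no preference. Of the 8 cores, 7 lay wholly within one, 3 of 4 in mt-Rnr1 and 4 of 4 in mt-Rnr2, which is too few to tell apart from those shares. The exception was GATACCC at chrM:497-503. It held 6 sites with 29 cDNAs and began 2 nt after position 495, 1 of the tallest sites of 12S. Some other cores lay close to clusters. CCGCGGT ended 1 nt before the cluster at chrM:323-382. GGGATAA began 3 nt after the last site of the cluster at chrM:2340-2370. AAGACCC was 80 nt from its nearest site, TTGGATC 65 nt and ACGAAAG 58 nt.

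The stretch between the decoding-site strands and the stretch before GGGATAA are shown because a cluster lies near a core in each. Capitals mark the cores here, on the plus strand of mm9:
mt-Rnr1 chrM:906-988: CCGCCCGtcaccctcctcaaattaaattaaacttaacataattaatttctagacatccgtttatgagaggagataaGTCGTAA
mt-Rnr2 chrM:2340-2379: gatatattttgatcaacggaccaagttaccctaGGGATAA
The cluster at chrM:936-968 sat between the strands of the decoding site, 24 nt after CCGCCCG and 14 nt before GTCGTAA. Neither core held a site. In the 16S stretch, the highest nucleotide was position 2355, with 56 cDNAs.

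Uridine was more frequent, and guanosine rarer, at tall sites than in the rRNAs as a whole. Over both RNAs, 43.6% of the 110 sites of 10 or more cDNAs were at uridine (34.2% to 53.4%), against 26.4% of all nucleotides. Sites of 2 to 9 cDNAs had 30.6% uridine (25.5% to 36.1%), and sites of 1 cDNA had 21.0% (14.5% to 28.8%). Guanosine went the other way, from 16.7% (10.9% to 24.0%) at sites of 1 cDNA to 10.2% (7.03% to 14.2%) at 2 to 9 and 1.82% (0.22% to 6.41%) at 10 or more, against 16.2% of all nucleotides. In mt-Rnr1, 0 of 39 tall sites were at guanosine (upper limit of the exact interval 9.03%; 3 counts of the total would be 7.69%). Neighbouring sites share their sequence, so these intervals are too narrow.

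Nucleoside shares at tall sites could not be separated between the rRNAs at this depth. Uridine took 53.8% of tall sites in mt-Rnr1 (37.2% to 69.9%) and 38.0% in mt-Rnr2 (26.8% to 50.3%), with overlapping intervals. Cytidine took 7.69% (1.62% to 20.9%) and 22.5% (13.5% to 34.0%), also overlapping. Of the 16 clusters, 6 had their highest nucleotide at uridine, 6 at adenosine, 4 at cytidine and 0 at guanosine. In mt-Rnr1 this was 1 at uridine, 4 at adenosine and 1 at cytidine, and in mt-Rnr2 it was 5, 2 and 3. In mt-Rnr1, positions 338, 367 and 464 were adenosines and position 495 a uridine, and in mt-Rnr2 position 1320 was a cytidine. Adenosine carried 48.5% of all mt-Rnr1 cDNAs but 39.5% of mt-Rnr2 cDNAs, at nearly the same share of nucleotides (37.8% and 38.2%). This rested on few sites: without the 3 highest adenosines of each RNA, chosen after seeing the data, the shares were 32.9% and 34.0%.

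**Figure D4:**
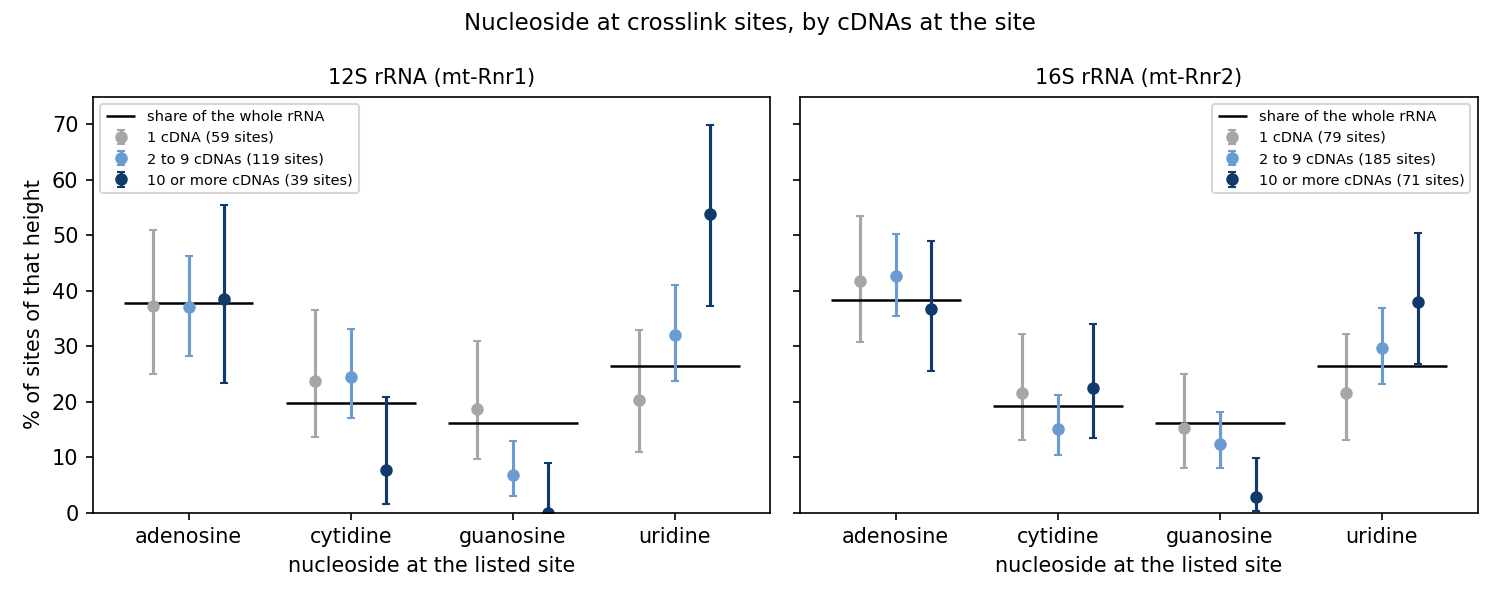
Percent of sites at each nucleoside (vertical axis) for sites of 1, 2 to 9 and 10 or more cDNAs in each rRNA; bars are 95% exact binomial intervals and black lines the share of that nucleoside in the whole RNA. Uridine rises and guanosine falls with the number of cDNAs in both RNAs, while adenosine stays near its share.

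Listed sites were less dense near short words of G and A. Words of 5 nt made only of G and A occurred 49 times in mt-Rnr1 and 100 times in mt-Rnr2 on the plus strand, overlaps included. They are a broad stand-in for the purine-rich sequence known for this protein family. Among them, GAAGA occurred 1 time in mt-Rnr1 and 3 times in mt-Rnr2, AGGAG 4 and 1 times, and GAGGA 3 and 0 times. In mt-Rnr1, 15.5% of the 677 nucleotides within 25 nt of such a word were listed (12.9% to 18.5%), against 40.3% of the 278 farther away (34.5% to 46.3%). In mt-Rnr2 the shares were 18.4% of 1249 (16.3% to 20.7%) and 31.5% of 333 (26.6% to 36.8%). All listed nucleotides lie in 6 clusters of mt-Rnr1 and 10 of mt-Rnr2. These shares therefore depend on where few clusters fall, and the intervals are too narrow. The mean depth of listed sites near and far was 8.84 and 7.68 cDNAs in mt-Rnr1, and 6.92 and 8.71 in mt-Rnr2. Clusters held less guanosine than empty stretches, 11.5% against 18.0% in each RNA. Adenosine did not follow in both: it was 36.7% in clusters against 38.3% in empty stretches of mt-Rnr1, but 41.8% against 36.8% in mt-Rnr2.

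In a folding model of the naked RNA, listed nucleotides were on average slightly more likely to be unpaired than the others. The mean probability of being unpaired (RNAplfold, window 150 nt, span 100 nt) was 0.60 at listed and 0.55 at unlisted nucleotides of mt-Rnr1, with SDs over nucleotides of 0.28 and 0.31. In mt-Rnr2 it was 0.60 and 0.52, with SDs of 0.30 and 0.32. At the highest nucleotides of the clusters it was 0.71 in both RNAs (n = 6 and 10). The difference between listed and unlisted nucleotides was 0.05 in mt-Rnr1 and 0.08 in mt-Rnr2. With the other folding windows it was 0.02 and 0.08 in mt-Rnr1, and 0.07 and 0.08 in mt-Rnr2. Each main difference was below the SD between cluster means, 0.09 over 6 clusters and 0.12 over 10. That SD measures how clusters differ and not the error of the difference, so it cannot decide whether the difference is real. The model knows neither ribosomal proteins nor contacts between distant parts of the RNA.

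The tRNAs that adjoin the rRNAs in the precursor held listed cDNAs unevenly. mt-Tf, the tRNA for phenylalanine before 12S, held 121 cDNAs over 68 nt, or 178 per 100 nt, between the values of the rRNAs. mt-Tv, the valine tRNA between 12S and 16S, had no listed site over its 69 nt. mt-Tl1, a leucine tRNA after 16S, held 59 cDNAs over 75 nt, or 78.7 per 100 nt, and mt-Nd1, which follows it, had no listed site. No cluster crossed a gene border. From the last site of 12S to the first site of 16S, 145 nt were empty, and 149 nt were empty between mt-Tf and 12S sites. The gap between the last 16S site and the first site of mt-Tl1 was 33 nt.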

How the data were processed

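The deposited values are scores: a whole number of cDNAs per nucleotide whose sign is the strand, on mm9. The authors summed them over 5 data sets and kept positions whose false discovery rate was below 0.05 (100 permutations, 15 nt neighbourhood), per the file header (Ensembl 59). The submitters' processing notes name Bowtie 0.10.1. The peak caller and the treatment of duplicate and multiply mapping reads are not stated in these sources. How 5 data sets map onto 4 libraries is not given either, and the depth of each library is unknown.

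Gene borders and sequences came from GENCODE M21 on GRCm38, whose mitochondrial sequence is known to be that of mm9; nuclear genes were not named. Positions are 1-based. With 1 group and 1 pooled list, no test between samples was possible, and 95% exact Clopper-Pearson or Poisson intervals were computed. Clusters join sites at most 15 nt apart, and empty stretches are 50 nt or longer. The named items were the 5 highest sites, 5 clusters with most cDNAs and 3 longest empty stretches of each rRNA. Others were chosen after their values were seen, as were the cores. The genes and measures were chosen with earlier results of these data known. Cluster and stretch finding was tested on simulated data. Python 3.11.15, numpy 2.4.6, scipy 1.17.1 and ViennaRNA 2.7.2 were used. Alternatives by site height, cluster distance, stretch length, site weight and folding window are given below.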

Additional observations from a re-analysis of the deposited data

How the results depend on the processing

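No paired analysis was possible because all libraries form 1 group in 1 pooled list. Of 48 alternatives, 23 stayed within the counting interval, the SD between clusters or 1.5 times the count, 25 moved and 0 reversed. Apart from the folding difference, these are shares, densities or counts of 1 RNA. Such values have no sign to reverse, so the 0 says little. The order of the RNAs by density was not part of this count, and it did reverse, as given below. Leaving out the cluster with most cDNAs or the highest adenosines was chosen after seeing the data. Values are for mt-Rnr1, then mt-Rnr2. Nucleotides with a site were 16.5% and 16.2% at 2 or more cDNAs, and 8.38% and 8.53% at 5 or more. Density was 159 and 132 cDNAs per 100 nt with sites of 5 or more, and 171 and 152 without the highest site. It was 123 and 132 without the 5 highest, and 119 and 131 without the cDNAs of the cluster with most, at full RNA length. The last pair of settings put mt-Rnr2 above mt-Rnr1. Empty stretches took 71.7% and 70.5% from 30 nt on, and 49.3% and 60.2% from 100 nt on; with sites of 2 or more cDNAs mt-Rnr1 had 75.4%. The highest 10% of sites held 53.3% and 43.3% of cDNAs among sites of 2 or more, and the 1 leading cluster held 36.7% (of 6 clusters) and 17.0% (of 10), which are unequal fractions and not comparable. Uridine at sites of 5 or more cDNAs was 45.0% and 37.8%. Cluster counts ranged from 5 to 9 and from 7 to 13 over joining distances of 5 to 50 nt. Since only significant sites are listed, depth limits what empty stretches can show.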
